A study of Mus musculus with 5 samples.

Results

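Protease, granule and receptor genes of cytotoxic lymphocytes were followed in bone marrow plasma cell (PC) preparations, ex vivo and after culture. The 9 genes included Ctsw, a protease gene of cytotoxic lymphocytes, and Prf1, Gzma, Gzmb and Nkg7, which encode proteins of the cytotoxic granule. The others were the T cell receptor subunit genes Cd3e and Cd3g, and the receptor genes Klrd1 and Il2rb. Members were all probe sets on the array that carry 1 gene symbol and whose symbol is 1 of these names, which gave 11 probe sets for the 9 genes, of 18193 genes with such a probe set in all. Ctsw was among the genes that the study itself listed as differing on these same arrays, so its direction here is not independent evidence.

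C57BL/6J mice were immunized and boosted with NP-CCG as labelled (NP-CGG in the study's methods), a hapten coupled to chicken gamma globulin, in incomplete Freund's adjuvant, and long-lived PCs were taken from the bone marrow more than a month after the last boost. All PCs went through magnetic removal of cells bearing B220 or CD49b, an integrin chain found on NK cells, followed by enrichment of CD138high cells, and CD138 is the surface proteoglycan that marks PCs. The ex vivo group (n = 2 arrays) was processed for RNA at that point. The cultured group (n = 3 arrays) was kept for 3 days on ST2 cells, a mouse bone marrow stromal line, with the cytokine APRIL at physiological oxygen, and was then sorted by flow cytometry. Experiment 1 gave 1 ex vivo and 1 cultured array, and experiment 2 gave 1 ex vivo and 2 cultured arrays. Only the cultured cells passed through the flow sorter, so culture and sorting cannot be told apart. No source states that the 2 cultured arrays of experiment 2 came from separate cultures, so p-values measure the spread between arrays, which may be technical.

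Cytotoxic T cells and NK cells kill by releasing granules onto a target cell. Perforin opens the membrane and granzymes, which are serine proteases, enter and trigger death. T cells recognize the target through the T cell receptor and its CD3 chains, whereas NK cells read it through receptors such as CD94, and both lineages answer to IL-2 and IL-15 through a shared receptor chain. PCs are antibody-secreting cells of the B lineage and are not classed as killer cells, so these genes are commonly read as markers of other lymphocytes in a PC preparation.

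The 5 arrays had median intensities from 87.05 to 94.14 over all probe sets, on the linear scale of the deposited values. An intensity of 50 was used as a working floor, without a detection call, and 30477 of 45037 probe sets reached it in at least 2 of 5 arrays and were tested. Of the 11 member probe sets, 7 were tested, covering 5 genes. The other 4, for Gzmb, Nkg7, Klrd1 and Cd3e, lay under 50 in all 5 arrays and are given as values with no test. The ratio of 3' to 5' control probe sets, a sign of RNA integrity, was higher in experiment 1. For Actb it was 0.31 ex vivo and 0.77 cultured on the log2 scale in experiment 1, against -0.12 to -0.01 in experiment 2.

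Genes of the isolation steps were read as a check of the preparations. Itga2, which encodes CD49b, was at 51.91 and 49.47 ex vivo and at 49.47, 46.01 and 49.43 in culture. It thus lay near the floor in all 5 arrays. Sdc1, the CD138 gene, was between 5916 and 7867 ex vivo and between 4981 and 6782 in culture for the probe set with its highest mean. Ptprc, which encodes CD45, was between 2246 and 3114 on 1 of its probe sets, which does not separate the B220 isoform. None of the probe sets of Sdc1 and Ptprc passed the test for culture, and that of Itga2 was under the filter and not tested.

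Start-site sequence was read for the members to show the regulatory letters of the granule genes whose levels are described next. RefSeq promoters on GRCm38.p6, from 250 bases before to 50 after the start site, were matched for 6 of the 9 members. Promoters of 3 members are shown, because Gzma is the member that passed a culture test, Prf1 a granule gene well above the floor that did not, and Gzmb the granzyme under the floor. Gzma lies at chr13:113100932-113101231 on the minus strand, Gzmb at chr14:56262285-56262584 on the minus strand and Prf1 at chr10:61297586-61297885 on the plus strand. Capitals mark 3 motifs searched on both strands, TGANTCA (AP-1), TGACGT (a cyclic AMP response element core) and TGTGGT (RUNX).
Gzma: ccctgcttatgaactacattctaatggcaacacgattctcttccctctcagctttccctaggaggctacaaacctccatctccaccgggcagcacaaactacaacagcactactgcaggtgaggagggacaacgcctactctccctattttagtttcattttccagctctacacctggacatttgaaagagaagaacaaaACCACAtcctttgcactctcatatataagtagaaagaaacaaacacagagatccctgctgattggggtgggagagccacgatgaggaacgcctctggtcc
Gzmb: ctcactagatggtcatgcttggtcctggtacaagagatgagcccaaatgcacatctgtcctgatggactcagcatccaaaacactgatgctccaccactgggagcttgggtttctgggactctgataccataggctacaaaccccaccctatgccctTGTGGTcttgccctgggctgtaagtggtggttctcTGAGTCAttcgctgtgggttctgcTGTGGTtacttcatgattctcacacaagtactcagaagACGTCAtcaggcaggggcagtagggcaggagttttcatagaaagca
Prf1: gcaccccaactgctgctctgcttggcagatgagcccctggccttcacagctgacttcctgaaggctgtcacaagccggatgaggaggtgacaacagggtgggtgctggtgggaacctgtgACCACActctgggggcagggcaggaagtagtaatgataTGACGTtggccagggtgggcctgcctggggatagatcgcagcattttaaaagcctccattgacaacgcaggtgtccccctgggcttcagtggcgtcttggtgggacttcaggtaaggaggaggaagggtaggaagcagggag
The AP-1 letters were found in 1 member promoter, Gzmb, and in 7.8% of 32544 promoters. The TGACGT letters were found in 3 of 6 member promoters, those of Gzmb, Prf1 and Cd3e, and in 7.6% of all. The RUNX letters were found in 4 of 6, those of Gzma, Gzmb, Nkg7 and Prf1, and in 16.7% of all. Gzmb held 2 RUNX matches, 93 and 34 bases before the start site, and Gzma held 1, 50 bases before it. The Cd3g promoter held none of the 3, and no matches overlapped each other. The 3 motifs were chosen after these sequences were read, so the counts beside the shares of all promoters are no test of enrichment. A match is a description of letters and not a binding site.

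Ctsw and Gzma lay lower in culture in both experiments, and they were the members with the widest range over the arrays. Ctsw encodes cathepsin W, a cysteine protease of NK cells and cytotoxic T cells. Its intensity on probe set 1422632_at was 1041 and 616 ex vivo in experiments 1 and 2. In culture it was 428 in experiment 1 and 376 and 398 in experiment 2. All 3 cultured arrays were under both ex vivo arrays, and the ex vivo array of experiment 1 was the highest of the 5. The mean log2 level was 9.64 ± 0.54 (SD, n = 2) ex vivo and 8.64 ± 0.09 (SD, n = 3) in culture. The log2 difference was -1.0 (SE 0.25, 95% confidence interval -1.64 to -0.36), with a limma adjusted p of 0.491. It therefore did not pass the test over all probe sets. Within the experiments, cultured minus ex vivo was -1.28 in experiment 1 and -0.71 and -0.63 in experiment 2 on the log2 scale. With the experiment as a block the difference was -0.93 (SE 0.17, 95% confidence interval -1.34 to -0.52) and the adjusted p 0.0641. These arrays hold bulk RNA, in which fewer cells of a type and less RNA per cell cannot be told apart.

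Gzma encodes granzyme A, a tryptase of the cytotoxic granule. On probe set 1417898_a_at its intensity was 72.08 ex vivo in experiment 1 and 101.79 in experiment 2. In culture it was 41.51 in experiment 1 and 51.63 and 60.05 in experiment 2. The groups did not overlap, but the cultured arrays sat close to the floor and the array of experiment 1 was under 50. The mean log2 level went from 6.42 ± 0.35 (SD, n = 2) ex vivo to 5.66 ± 0.27 (SD, n = 3) in culture. Without a block the difference was -0.76 (SE 0.24, limma adjusted p = 0.627) and did not pass. The 3 within-experiment differences were -0.80, -0.98 and -0.76 on the log2 scale, the closest agreement among members whose differences exceeded 0.5 in size. The last 2 subtract the same ex vivo array of experiment 2, so the 3 are not independent. With the experiment as a block Gzma fell by 0.84 on the log2 scale (SE 0.12, 95% confidence interval -1.14 to -0.54, adjusted p = 0.0404). That call was lost with the block when the cultured arrays of experiment 2 were averaged to 1, when any 1 array was left out (adjusted p from 0.0748 to 0.410) and with no filter on dim probe sets (adjusted p = 0.0709).

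Prf1, the perforin gene, lay far above the floor in both groups and did not pass the test for culture. Its probe set 1450335_at read 809.95 and 1082 ex vivo, in experiments 1 and 2. In culture it read 852 in experiment 1 and 1092 and 1091 in experiment 2. The arrays grouped by experiment and not by culture, with both arrays of experiment 1 under all 3 of experiment 2. The log2 difference was 0.10 (SE 0.20, limma adjusted p = 0.947), and with the block it was 0.04 with a 95% confidence interval from -0.22 to 0.30. The other probe set, 1451862_a_at, read 110.21 and 136.31 ex vivo and 130.19, 173.9 and 140.22 in culture. Its difference was 0.26 (SE 0.19, adjusted p = 0.883), with an interval from -0.12 to 0.55 under the block. Both Prf1 probe sets were higher in culture in all 3 within-experiment pairs, by 0.01 to 0.35 on the log2 scale, and neither passed the test. The pairs of experiment 2 share their ex vivo array. Perforin and granzyme A are carried in the same granules. Side by side, the within-experiment differences were -0.80, -0.98 and -0.76 for Gzma and 0.07, 0.01 and 0.01 for Prf1 on 1450335_at, a contrast between the 2 genes that was not tested.

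**Figure D1:**
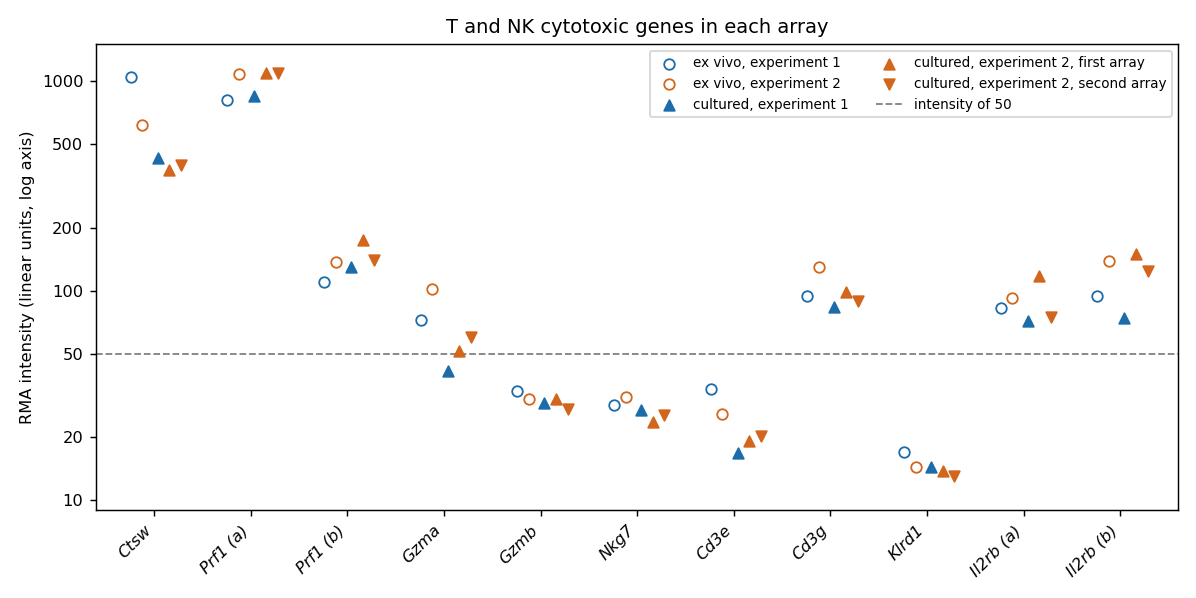
Intensity of each member probe set in the 5 arrays on a log axis, with open circles for ex vivo arrays, filled triangles for cultured arrays, colour for the experiment and a dashed line at an intensity of 50. Ctsw and Gzma show all cultured arrays under both ex vivo arrays, Prf1 (a), probe set 1450335_at, splits by experiment, and Gzmb, Nkg7, Cd3e and Klrd1 lie under the line throughout; Prf1 (b) is 1451862_a_at, Il2rb (a) 1417546_at and Il2rb (b) 1448759_at.

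The remaining granule members lay under the floor. Gzmb encodes granzyme B, the protease that cuts caspases in the target cell, and its probe set 1419060_at read 33.11 and 30.55 ex vivo and 29.22, 30.55 and 27.15 in culture. The ex vivo array and the first cultured array of experiment 2 had the same value, so the groups touched. Nkg7, a membrane protein of the granule, read 28.45 and 31.23 ex vivo and 26.93, 23.64 and 25.42 in culture on 1450753_at. Its cultured arrays were all under the ex vivo arrays, with within-experiment differences of -0.08, -0.40 and -0.30 on the log2 scale. Both genes stayed under 50 in every array, where the order of values carries little weight.

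The CD3 chains couple the T cell receptor to signalling in all T cells. Cd3g, the gamma chain gene, was over the floor in all 5 arrays, with 94.05 and 129.25 ex vivo and 83.52, 98.42 and 89.76 in culture on 1419178_at. The highest cultured array was above the ex vivo array of experiment 1, so the groups overlapped. The log2 difference was -0.29 (SE 0.19, limma adjusted p = 0.867), and -0.34 with the block (SE 0.12, adjusted p = 0.242). Cultured minus ex vivo was -0.17 in experiment 1 and -0.39 and -0.53 in experiment 2, lower in each pair. Cd3e, the epsilon chain gene, read 33.97 and 25.86 ex vivo and 16.9, 19.13 and 20.24 in culture on 1422105_at. The groups did not overlap and the difference was -0.66 on the log2 scale, from 4.89 ± 0.28 (SD, n = 2) to 4.23 ± 0.13 (SD, n = 3), but all 5 values lay under 50. When all 45037 probe sets were tested without a filter, its adjusted p was 0.533, and 0.179 with the block.

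The receptor genes of NK cells and of cytokine response had slightly lower means in culture, by 0.02 to 0.19 on the log2 scale. Il2rb did not pass the test for culture and Klrd1 was not tested. Klrd1 encodes CD94, which pairs with NKG2 chains on NK cells, and its probe set 1460245_at read 17.03 and 14.37 ex vivo and 14.37, 13.8 and 13.13 in culture. The ex vivo array of experiment 2 and the cultured array of experiment 1 had the same value, and all 5 lay under 50. Il2rb encodes the beta chain shared by the IL-2 and IL-15 receptors. Probe set 1417546_at read 82.34 and 92.18 ex vivo, 71.79 in culture in experiment 1, and 117.55 and 74.67 in the cultured arrays of experiment 2. Those 2 cultured arrays of the same experiment were the highest and the second lowest of the 5. The log2 difference was -0.02 (SE 0.26, limma adjusted p = 0.987). Probe set 1448759_at read 94.57 and 139.09 ex vivo and 73.95, 149.48 and 124.72 in culture, a difference of -0.04 (SE 0.36, adjusted p = 0.985). With the block the 95% confidence intervals were -0.60 to 0.46 and -0.52 to 0.19, so the data leave the sign of the difference undetermined.

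**Figure D2:**
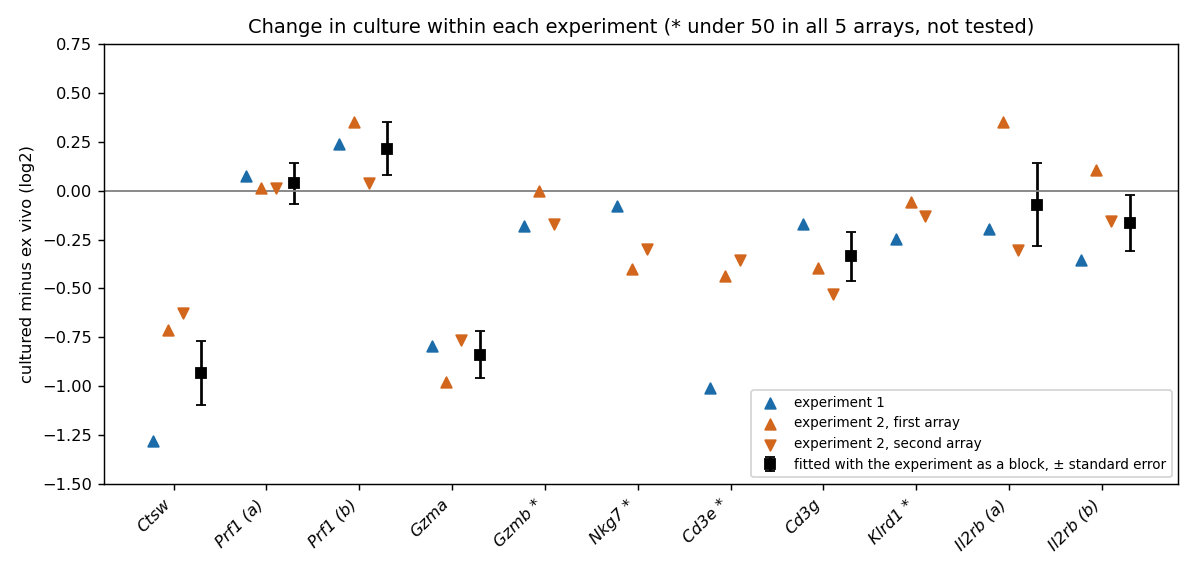
Cultured minus ex vivo on the log2 scale for each member probe set, with 1 triangle per cultured array against the ex vivo array of its own experiment, and black squares with bars for the difference fitted with the experiment as a block and its standard error. Gzma shows -0.80, -0.98 and -0.76, Ctsw spreads from -1.28 to -0.63, both Prf1 probe sets sit at or above 0, and an asterisk marks probe sets under 50 in all 5 arrays.

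Over the 7 tested member probe sets, none passed the test for culture without a block, where 0.0459% of all tested probe sets did. At an unadjusted p under 0.05 the count was 2, Ctsw and Gzma, against 6.59% of all tested probe sets. With the experiment as a block 1 of 7 passed, Gzma, against 1.8% of all. The cultured arrays were all under both ex vivo arrays for 2 of 7, against 10.6% of all tested, and all over them for 0 of 7, against 9.42%. Lower values in every within-experiment pair were seen for 3 of 7, against 24.9%. Counted without the filter, 4 of 11 member probe sets had every cultured array under both ex vivo arrays, against 12.5% of 45037, and 6 of 11 were lower in every pair, against 26.4%. Nkg7 and Cd3e are in both counts and Klrd1 is in the second. These genes lay under 50 in all 5 arrays, where the order of values carries little weight. The median log2 difference was -0.19 over the 11 member probe sets, which is the value of the dim Klrd1 probe set, and -0.04 over all 45037. Over the 7 tested it was -0.04, and -0.02 over all tested. With 2 against 3 arrays the smallest p an exact two-sided permutation test could give is 0.1, so none was run.

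More member probe sets passed the test for the experiment than for culture. The same held for all tested probe sets, with 8170 for the experiment against 14 for culture without a block and 550 with it. With culture as a covariate, 3 of 7 tested probe sets differed between the experiments, all higher in experiment 2, against 26.8% of all tested probe sets that differed in either direction. Of all 30477 tested, 3954 were called higher in experiment 2. Il2rb on 1448759_at was higher by 0.74 on the log2 scale (SE 0.14, limma adjusted p = 0.0177), Gzma by 0.46 (SE 0.12, adjusted p = 0.0424) and Prf1 on 1450335_at by 0.38 (SE 0.10, adjusted p = 0.0451). The other Il2rb probe set gave 0.29 (adjusted p = 0.356) and the other Prf1 probe set 0.28 (adjusted p = 0.176). With each array centred on its median, Il2rb kept its call (adjusted p = 0.0209) and Gzma (adjusted p = 0.063) and Prf1 (adjusted p = 0.0763) did not. The Gzma call was also lost with quantile normalization (adjusted p = 0.0769), with no filter (adjusted p = 0.0533) and with values under 50 set to 50 (adjusted p = 0.164). None of the 3 passed when 1 ex vivo array (either one) or the experiment 1 culture was left out. Ctsw went the other way, with -0.41 (adjusted p = 0.124). The control ratios for RNA integrity given above moved with the experiment, and their part in these differences was not tested.

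The size of the culture difference in Ctsw was also compared between the experiments. The interaction was 0.61 on the log2 scale (SE 0.15), the difference being smaller in size in experiment 2, with a limma adjusted p of 0.654. At an unadjusted p under 0.05 Ctsw was the 1 member of 7 to pass, against 6.59% of all tested probe sets. None of the 30477 passed after adjustment. That fit has 1 residual degree of freedom.

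Genes that work with the members were read from lists of fixed names, with the brightest tested probe set for each gene. Of 19 other granule and killing genes on the array, 8 lay under 50 in all arrays and 11 were tested. The granzyme genes Gzmc, Gzmd, Gzmf, Gzmg, Gzmk and Gzmn the death ligand gene Fasl and the cytokine gene Ifng made up those under 50. Without a block none of the 11 passed, and with the block, where 1.8% of all tested probe sets passed, 1 was higher. That was Serpinb9, the inhibitor that shields cells from granzyme B, which read 272 and 329 ex vivo and 629, 784 and 750.01 in culture. Its 3 cultured arrays lay above both ex vivo arrays. It rose by 1.22 on the log2 scale with the block (SE 0.10, adjusted p = 0.0106), and its adjusted p without the block was 0.158. Its second probe set, 1439790_at, gave 1.27 with the block (adjusted p = 0.0661) and did not pass.

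Of 20 other T cell genes on the array, 3 were under 50 throughout and 17 were tested. None passed without a block, and with the block, where 1.8% of all tested probe sets passed, 1 was lower. That was Il7r, the receptor chain for the cytokine IL-7. It read 97.46 and 103.34 ex vivo and 24.15, 33.28 and 31.65 in culture, so that the cultured arrays were all under the floor. Il7r thus entered the test only through the ex vivo arrays, the group where it was high, so its call is not independent of the filter. Il7r fell by 1.82 on the log2 scale with the block (SE 0.13, adjusted p = 0.0063), and its adjusted p without the block was 0.089. Its other probe set lay under 50 in all 5 arrays. With the block, no probe set of the array passed when 1 ex vivo array (either one) or the experiment 1 culture was left out, so neither Serpinb9 nor Il7r did. Cd3d, the delta chain gene of the T cell receptor complex, read 75.93 and 86.88 ex vivo and 63.52, 71.95 and 67.15 in culture, a difference of -0.27 (adjusted p = 0.833). Over the 17 tested, 7 means were higher and 10 lower in culture, with a median of -0.05 on the log2 scale. Of all 30477 tested probe sets, 14223 had higher and 16254 lower means.

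Of 20 other NK cell genes on the array, 11 lay under 50 in all arrays and 6 were tested. The remaining 3 reached 50 in too few arrays. None of the 6 passed with or without the block, and all 6 means were lower in culture, with a median of -0.17 on the log2 scale. Lower means were seen for 16254 of all 30477 tested probe sets. These means set the pairing by experiment aside. Within experiment 1, Fcer1g (1141 ex vivo, 1262 in culture), Tbx21 (63 and 72.74) and Ncr1 (51.91 and 52.45) were higher in culture. Klrg1, Cd160 and Tyrobp were lower there. With the block the Fcer1g difference was 0.04 on the log2 scale. Ncr1, the gene of the NK receptor NKp46, was between 46.15 and 52.45 in all 5 arrays. The widest difference was in Tyrobp, the adaptor DAP12 of NK and myeloid receptors, which read 65.51 and 77.29 ex vivo and 30.94, 29.61 and 43.74 in culture. That is -1.06 on the log2 scale (adjusted p = 0.378), and -1.09 with the block (adjusted p = 0.0588). Tyrobp entered the test only through the ex vivo arrays, the group where it was high, so its values are not independent of the filter. Cd160, a receptor of NK and T cells, followed with -0.30 (adjusted p = 0.858) on 1420067_at. Its other tested probe sets gave -0.08 on 1420066_s_at and -0.14 on 1420396_at. The dim 1456847_at, under 50 in all 5 arrays, read 15.26 and 15.35 ex vivo and 17.54 to 22.05 in culture.

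All 8 genes of IL-2 and IL-15 receptor signalling on the array were tested and none passed for culture. In culture 6 means were higher and 2 lower, against 14223 higher and 16254 lower of all tested probe sets. Their median was 0.14 on the log2 scale for the 8 genes. Cish, a feedback inhibitor that these cytokines induce, read 371 and 465 ex vivo and 283, 192 and 221 in culture, a difference of -0.86 (adjusted p = 0.502). Stat5a, the factor that carries the signal, read 357 and 678 ex vivo and 453, 1375 and 1118.5 in culture on 1450259_a_at. It differed by 0.85 (adjusted p = 0.869), and like Il2rb on 1448759_at it was higher in experiment 2, by 1.23 (adjusted p = 0.0078). The other Stat5a probe set, 1421469_a_at, read 305 and 381 ex vivo and 430, 435 and 432 in culture. Its cultured arrays were thus close to each other in both experiments.

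**Figure D3:**
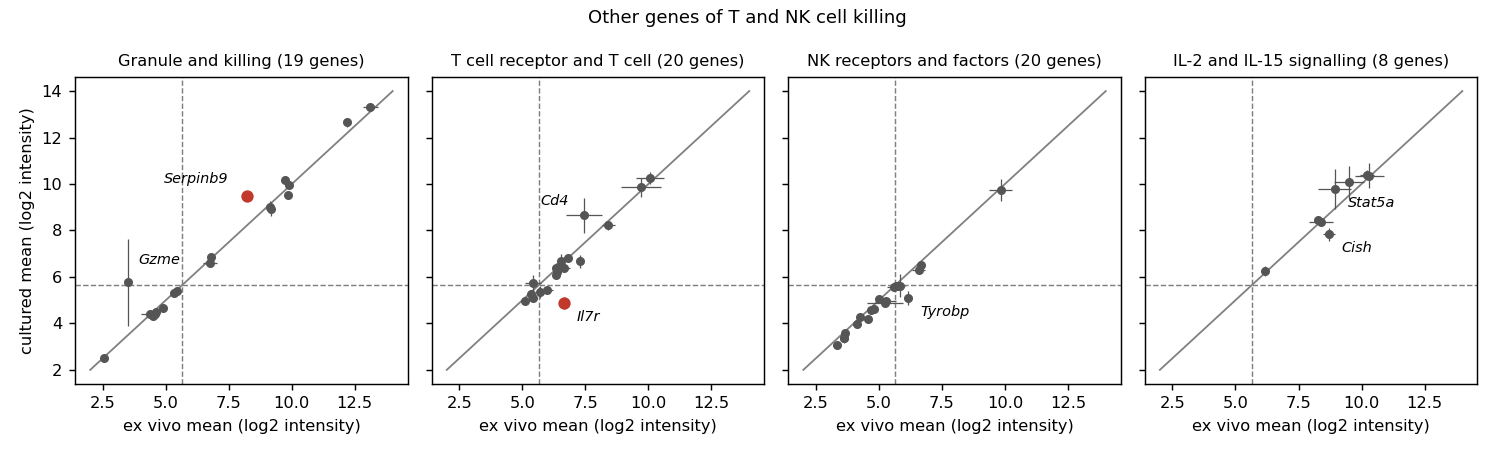
Mean log2 intensity in culture (n = 3 arrays) against ex vivo (n = 2 arrays) for the 4 lists of related genes, with bars for the SD, a solid line of equality and dashed lines at an intensity of 50. Red points are genes past the threshold in the blocked fit, Serpinb9 above the line and Il7r below it, while most NK genes lie in the lower left corner under 50.

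Markers of some other cells also differed with culture on the same arrays, and ex vivo values are given here for experiment 1 and then 2. Beside the counts below, 0.0459% of all tested probe sets passed without a block and 1.8% with it, in either direction. Of 13 tested stromal genes 2 were higher without a block and 9 with it, and the summed intensity of the list was 2425 and 1763 ex vivo against 8045 to 17167 in culture. Of 9 tested macrophage genes 1 was lower without a block. With the block 6 were lower and 1 higher, C1qa among the lower with 179.9 and 159 ex vivo and 35.57 to 38.61 in culture. C1qa, C1qb and Cd5l, all among the lower, entered the test only through the ex vivo arrays, and stromal genes such as Cav1 only through the cultured arrays. These calls are therefore not independent of the filter. The summed macrophage list was 2204 and 1813 ex vivo and 1531 to 1887 in culture, so those sums overlapped. The 4 tested neutrophil genes all had lower means in culture, against 16254 of all 30477 tested probe sets, and none passed. The whole neutrophil list summed to 857 and 525 ex vivo and to 421 to 434 in culture. Like Ctsw, the neutrophil sum and the macrophage sum were highest in the ex vivo array of experiment 1. Of 9 tested B cell and precursor genes 2 were lower with the block, Dntt and Cd72. Genes of basophils and mast cells (5 tested), erythroid cells (3) and plasmacytoid dendritic cells (7) did not pass for culture, with or without the block. The 11 plasma cell genes did not pass either, and their sum was 74629 and 75034 ex vivo and 68221 to 69280 in culture. The summed T cell list was 3029 and 4561 ex vivo and 3288 to 4409 in culture, and the summed NK list 1852 and 1513 against 1306 to 1895, so the groups overlapped in both. Such sums weigh bright genes most and do not count cells. In the NK list Fcer1g alone read 1141 and 721 ex vivo and 682 to 1262 in culture. Cd28 and Cd247 were the brightest genes of the T cell list. The 9 members themselves, 1 probe set per gene, summed to 2224 and 2170 ex vivo and to 1566 to 1855 in culture, and Ctsw and Prf1 made up most of that sum. The part of other cells in the levels of Ctsw and Gzma was not tested.

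The profile of Ctsw over the 5 arrays was set against that of every other tested gene. Likeness was the Euclidean distance between log2 values centred on each gene's mean, over 13577 genes. The nearest were Tedc1 (distance 0.240), a tubulin complex gene, Cubn (0.253), which encodes the receptor cubilin, Itih5 (0.273), Lrrn3 (0.290) and Ccdc90b (0.306). Each was highest in the ex vivo array of experiment 1 and had all cultured arrays under both ex vivo arrays. With the block, Itih5 (log2 difference -1.02, adjusted p = 0.0254) and Lrrn3 (-0.91, adjusted p = 0.0351) passed, and Tedc1, Cubn and Ccdc90b did not. The profile was chosen by these same values, so these differences describe the likeness and are no separate result.

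**Figure D4:**
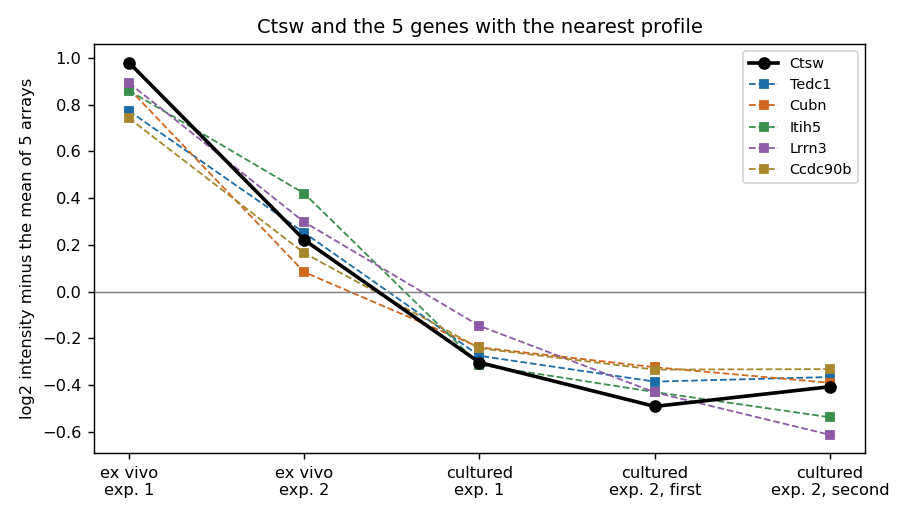
Log2 intensity minus the mean of the 5 arrays for Ctsw (black) and the 5 genes with the nearest profile, by array. All 6 genes are highest in the ex vivo array of experiment 1 and lie under 0 in the 3 cultured arrays.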

How the data were processed

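Biotin-labelled total RNA of 5 PC samples was hybridized to Affymetrix mouse GeneChip arrays. Background correction, normalization and summarization by RMA in the affy package were done by the authors. The values they deposited are linear intensities between 4.94 and 26947.18. GCOS is named too in the processing notes, and no source used here gives versions. Samples were grouped by the labels.

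Intensities were converted to log2. The 64 control probe sets were left out. Genes came from the platform annotation, with 34945 probe sets of 1 symbol. The log2 values of the 30477 probe sets at 50 or more in at least 2 of 5 arrays were fitted with limma 3.58.1 in R 4.3.3 (lmFit, eBayes, Benjamini-Hochberg over all, threshold 0.05). The study's methods name limma and this threshold but no covariate, and the first fit used none. The others had the experiment as a block, the experiment as the tested term, and the interaction. The step was tested on simulated data.

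The labels give arrays of both groups the same experiment number, which pairs them. Deviations from group means correlated at 0.749 in experiment 1 and at 0.558 and 0.719 in experiment 2. The ex vivo deviations mirror each other, so these values are not independent. The 2 cultured arrays of experiment 2 were not identical, but their SD of log2 differences, 0.221, was the lowest of all pairs (others 0.363 to 0.621).

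Members, lists and tests were chosen with earlier results of these data known, and motifs after the sequences were read. Named genes were all members, up to 4 passing genes of each related list or the 2 with the largest differences where none passed, the 5 genes nearest to Ctsw, and genes of the cell isolation. For marker lists of other cells, counts and sums replace most names. Cd3d, Ncr1 and the granule genes under the floor were added after their values were seen. Alternatives were the block, the filter, the normalization, a floor, the moderation, averaging of arrays and leaving out each array.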

Additional observations from a re-analysis of the deposited data

How the results depend on the processing

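No member probe set passed for culture under any alternative tried apart from the block, where Gzma passed (1 probe set, log2 difference -0.84, adjusted p = 0.0404). With the block and 1 array left out, with the block and no filter, and with the block and averaged arrays, the count was 0. Over all probe sets, 14 passed without a block. The count was 5 with no filter, 31 with a filter at 100, 4 with values under 50 set to 50, 0 with the cultured arrays of experiment 2 averaged, and 618 at an unadjusted p under 0.01. It ranged from 0 to 257 with 1 array left out. With the block, which follows the pairing by experiment, 550 passed, 206 with no filter, 187 with averaged arrays, and 0 or, without cultured replicate 2 or 3, 271 or 153 with 1 array left out. For the difference between experiments, 3 member probe sets passed, 1 with median centring, 1 with averaged arrays and from 0 to 2 with 1 array left out.

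Of 130 values of single member probe sets under alternatives, 120 kept direction and side of the threshold, and 9 turned sign without passing. With 1 array left out and no block, Il2rb (1417546_at, -0.02) ranged from -0.25 to 0.10, Il2rb (1448759_at, -0.04) from -0.32 to 0.25 and Prf1 (1450335_at, 0.10) from -0.11 to 0.31. For the first Il2rb probe set the values that turned were 0.06 without ex vivo replicate 2, 0.10 without cultured replicate 1, 0.08 without cultured replicate 3, and, with the block, 0.0234 without ex vivo replicate 1 or cultured replicate 1 and 0.0765 without cultured replicate 3. For the second they were 0.23 without ex vivo replicate 2 and 0.25 without cultured replicate 1. For Prf1 it was -0.11 without ex vivo replicate 1. The cause was not tested. Ctsw stayed lower in culture, from -1.38 to -0.62, with adjusted p from 0.0641 to 1 over 19 alternatives. Fits without a block that leave out an array can leave a group with 1 array, which is assumed to vary like the others. With the block, an experiment left with 1 array is fitted exactly and adds nothing to the culture difference. Leaving out ex vivo replicate 1 or cultured replicate 1 with the block is thus the same fit, although both are among the 130 values. For the difference between experiments, leaving out either ex vivo array is likewise the same fit. Fits with the block and 1 array left out, and the fit with no filter under the block, were chosen after seeing the data.

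With 2 ex vivo arrays, precision is limited by their number. For Gzmb, Nkg7, Klrd1 and Cd3e, signal near the floor allows no statement on a change.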

Other observations

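Among the related genes, Gzme and Cd4 were picked out after their values were seen, because both cultured arrays of experiment 2 were above the other 3 arrays on 1 probe set of each. Gzme, a granzyme gene, read 11.14 and 11.24 ex vivo and 12.57 in culture in experiment 1, against 80.57 and 157.51 in the cultured arrays of experiment 2. Its probe set, 1450171_x_at, is of the type whose probes can match other transcripts, and the neighbouring granzyme gene Gzmd lay under 6 on its 2 probe sets. The log2 difference was 2.28 (limma adjusted p = 0.827), and 1.97 with the block (adjusted p = 0.233), so it did not pass. Gzme entered the test only through the 2 cultured arrays of experiment 2, where it was high, so these values are not independent of the filter. Cd4, the coreceptor gene of helper T cells, has 2 tested probe sets. On 1427779_a_at it read 123 and 246 ex vivo and 230.48, 648 and 432 in culture. Its difference was 1.20 (adjusted p = 0.806), and 1.02 with the block (adjusted p = 0.0760). The other, 1419696_at, did not show the pattern, with 182 and 132 ex vivo, 290.34 in culture in experiment 1 and 221 and 193 in culture in experiment 2. It gave 0.58 (adjusted p = 0.800), and 0.66 with the block (adjusted p = 0.0626). On both probe sets each cultured array was above the ex vivo array of its own experiment, and neither passed.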
